A study of Mus musculus with 8 samples.

Results

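The Hox genes and lncRNAs of the Hox clusters were examined in immortalized mouse dental papilla cells with and without Bmp2. The members were 39 Hox genes, taken from the gene table by their symbols (11 HoxA, 10 HoxB, 9 HoxC and 9 HoxD), and 3 lncRNAs, Gm16258 and Gm20398 of the HoxC cluster and 5730446D14Rik of the HoxA cluster. These were 42 of the 22609 gene and 3840 lncRNA symbols measured. RNA-seq of total RNA compared 2 cell lines, iBmp2fx/fx cells with both Bmp2 alleles floxed (Bmp2 floxed/floxed) and iBmp2ko/ko cells with Bmp2 knocked out, and each line gave 1 library at 6, 24, 48 and 72 h of culture. The floxed line served as the control, both lines were immortalized, and no agent that differed between them is named in the labels. The 3 libraries of each line at 6, 48 and 72 h were compared (n = 3), and the 24 h libraries are given apart. As each genotype was a single line, genotype and cell line cannot be told apart, and the p-values measure the spread between culture times of 1 line.

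Hox genes encode homeodomain transcription factors that give cells their position along the body axis. They lie in 4 clusters, and genes at the same place in different clusters are paralogs that share a number: low numbers are used towards the head and high numbers towards the tail. The cranial neural crest of the first branchial arch, from which the dental papilla arises, is known for lacking Hox expression. Several lncRNAs are transcribed from within the clusters, among them Gm16258, which RefSeq names Hotair, and 5730446D14Rik, which RefSeq names Hoxaas2.

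The gene tables held 25890110 to 32415665 reads per library, and the share of alignments that were not unique was 41.3% to 49.6%. Bmp2 had 1 read in the floxed library of 24 h and 0 in the other 7 libraries, so its level does not check the genotype labels (a count of 0 allows 3 reads). Of the dental mesenchyme markers, Msx1 (105 to 233 reads), Lhx6, Pax9 and Runx2 were detected in every library, while Barx1, Lhx8 and Dlx6 had no more than 1 read in any. The odontoblast marker Dspp had at most 1 read. The library labelled knockout at 24 h lay apart from the other knockout libraries: of the 287 genes called between the lines without it, it was on the knockout side of the midpoint for 4.

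The promoters of 3 members are shown because these were the 2 genes called lower (Hoxa5 and Hoxd4) and a HoxC gene whose level did not pass the test (Hoxc4). They are RefSeq promoters of GRCm38.p6, 250 bases before to 50 after the gene start, each placed by an exact single match on NCBIM37 (mm9), the build of the files, and CpG dinucleotides are in capitals.
Hoxa5: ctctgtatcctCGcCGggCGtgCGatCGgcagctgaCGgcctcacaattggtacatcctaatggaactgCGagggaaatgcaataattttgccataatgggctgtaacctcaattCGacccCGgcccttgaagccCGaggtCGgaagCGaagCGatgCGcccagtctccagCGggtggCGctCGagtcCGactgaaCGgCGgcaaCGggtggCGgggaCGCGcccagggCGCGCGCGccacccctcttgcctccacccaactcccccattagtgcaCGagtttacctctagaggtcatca
Hoxd4: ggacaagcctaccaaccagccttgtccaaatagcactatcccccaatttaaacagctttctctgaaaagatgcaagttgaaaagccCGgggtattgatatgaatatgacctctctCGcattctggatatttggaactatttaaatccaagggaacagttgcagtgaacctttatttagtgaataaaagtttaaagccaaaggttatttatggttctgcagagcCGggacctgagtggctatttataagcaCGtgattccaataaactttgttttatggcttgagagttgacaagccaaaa
Hoxc4: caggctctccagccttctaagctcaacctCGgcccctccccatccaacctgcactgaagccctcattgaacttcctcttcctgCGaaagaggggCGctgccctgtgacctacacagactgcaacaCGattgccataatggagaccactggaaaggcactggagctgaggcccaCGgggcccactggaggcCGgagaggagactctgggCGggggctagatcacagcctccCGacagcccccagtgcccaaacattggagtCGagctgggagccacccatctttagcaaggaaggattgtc
The Hoxa5 sequence lies at chr6:52154537-52154836 on the minus strand, the Hoxd4 sequence at chr2:74559785-74560084 on the plus strand and the Hoxc4 sequence at chr15:102864576-102864875 on the plus strand, inside the annotated Hoxc4 gene. They hold 29, 4 and 9 CpG, against a median of 7 over 32851 promoters and of 14.5 over the 24 promoters found for 22 Hox genes. The 2 genes called lower had promoters of 61.7% GC (Hoxa5) and 39.7% GC (Hoxd4). Other Hox genes were also lower in each knockout library of 6, 48 and 72 h. Of these, Hoxa2, Hoxa3, Hoxd3 and Hoxd8 had promoters of 45.7%, 64%, 54% and 46.7% GC. The letters GGCGCC, searched on both strands, were in 5 of the 24 Hox promoters (20.8%) and in 11.9% of all promoters. TAATTA was in 2 (8.33% against 5.29%), both promoters of Hoxd11, and TGATNNAT in 4 (16.7% against 8.85%). None was in the 3 windows shown.

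Most of the 4 clusters was read in both lines. Summed over genes, Hox RPKM (reads scaled to exonic length and to the gene reads of the library) was 168 to 204 in the floxed and 137 to 157 in the knockout libraries of 6, 48 and 72 h. HoxB made up 67.9% to 68.9% of it in the floxed and 58.8% to 64.1% in the knockout libraries. Hoxb9, a gene of the thoracic level and the most abundant member, had a mean RPKM of 53.0 over the 6 libraries. By line, the next genes were Hoxb6 (15.7), Hoxa5 (12.0) and Hoxb8 (11.5) in the floxed and Hoxc13 (13.8), Hoxb3 (9.72) and Hoxb6 (9.66) in the knockout cells. Genes are not replicates. Hoxb8 and Hoxb7 share exonic bases on the same strand, so reads there may have been set aside as ambiguous and the RPKM of both understated.

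**Figure D1:**
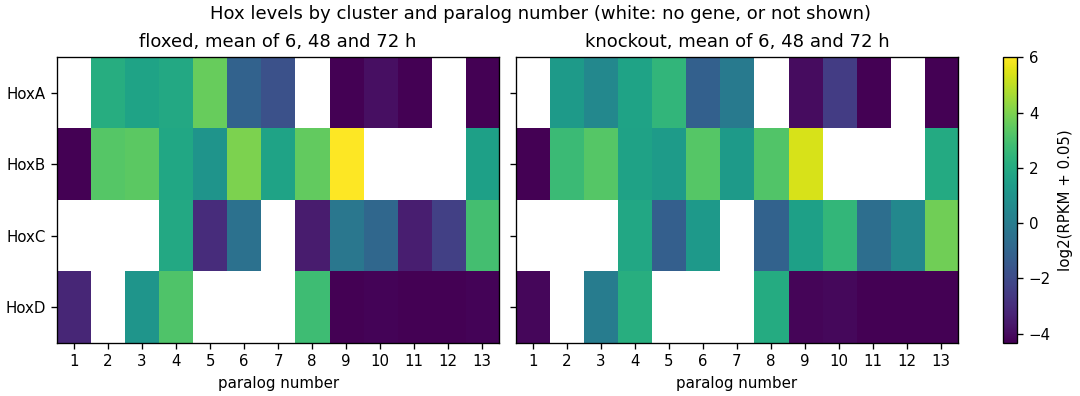
Mean Hox level as log2(RPKM + 0.05), in colour, by cluster (rows) and paralog number (columns) for the floxed and the knockout line, each the mean of 3 libraries; white marks positions with no gene in the table or not shown. Hoxb9 was the highest position in both lines, and the HoxC row from Hoxc5 to Hoxc12 is brighter in the knockout line.

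At the other end, 10 Hox genes did not reach the filter on low counts, with at most 8 reads in any library, and were not tested. They were Hoxa9, Hoxa11, Hoxa13, Hoxb1, Hoxd1, Hoxd9, Hoxd10, Hoxd11, Hoxd12 and Hoxd13. Of these, 5 had 0 reads in all 8 libraries. The HoxD cluster thus passed the filter only at its Hoxd3, Hoxd4 and Hoxd8 genes. Hoxc5, Hoxc8, Hoxc11, Hoxc12 and Hoxa10, and the lncRNAs Gm16258 and Gm20398, had at most 8 reads in a floxed library. They passed the filter only through the knockout libraries, so a higher call was the only one open to them. As members passed the filter partly through the line in which they were high, the 29 tested genes are not the whole family.

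Most HoxC genes rose in the knockout cells. In bulk RNA, more cells that read a gene and more RNA per cell cannot be told apart. Of the 9 HoxC genes, 7 were called at the adjusted limit, which asks for a log2 fold change of 1 or more in size and an adjusted p no higher than 0.05 (edgeR quasi-likelihood test, Benjamini-Hochberg over 13121 genes), all higher. Of these, Hoxc5, Hoxc8, Hoxc11 and Hoxc12 passed the filter on low counts only through the knockout libraries. Only a higher call was open to them. Hoxc6, Hoxc9 and Hoxc10 stayed called under a stricter filter, which kept a gene only if each library held 10 or more of its reads. That fit called 3 Hox genes, all higher, and 1.18% of all genes. Over all genes tested in the reported fit, 0.899% were called higher and 1.29% lower. No HoxA, HoxB or HoxD gene was called higher, and 2 genes, Hoxa5 and Hoxd4, were called lower. The median log2 fold change was 2.31 over the HoxC genes, -0.53 over the 8 HoxA genes tested, -0.31 over the 9 HoxB genes, -1.01 over the 3 HoxD genes and 0.03 over all genes.

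**Figure D2:**
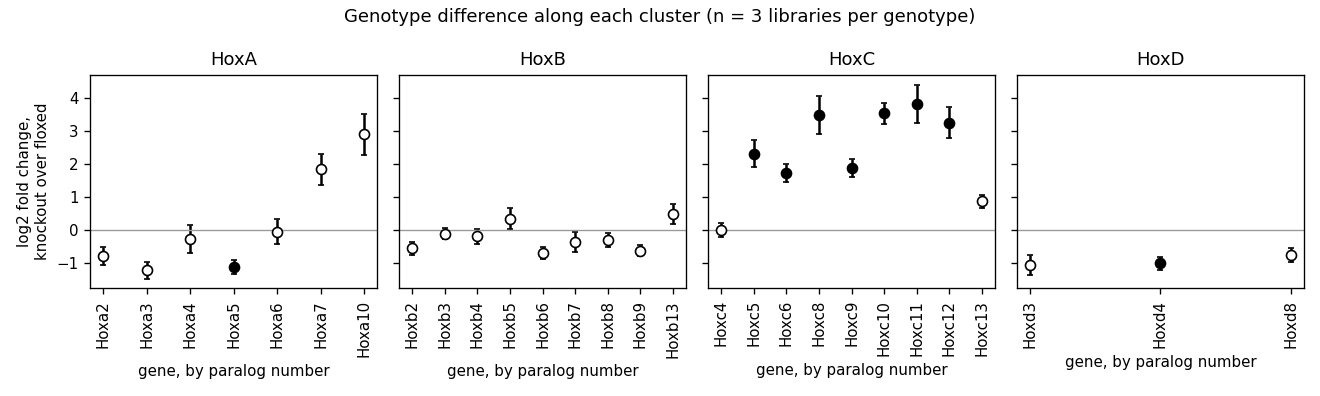
Log2 fold change, knockout over floxed (n = 3 libraries per genotype), of the Hox genes shown, ordered by paralog number within each cluster; bars are the standard error and filled points are called at the adjusted limit. The 7 filled points above 0 run from Hoxc5 to Hoxc12 without a gap, and Hoxa5 and Hoxd4 are the filled points below 0.

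Hoxc10, a gene of the lumbar level that acts in hindlimb motor neurons, had the smallest adjusted p among the Hox genes. It measured 1.22, 0.864 and 0.767 CPM (reads scaled to the gene reads of the library, with no division by length) in the floxed libraries of 6, 48 and 72 h and 12.4, 12.1 and 8.57 CPM in the knockout libraries. The groups did not overlap, with a log2 fold change of 3.53 (SE 0.32, adjusted p = 0.00574 by edgeR). The 24 h libraries were at 0.918 CPM in the floxed and 1.58 CPM in the knockout line, both near the floxed level.

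Hoxc9 and Hoxc6, which act at the thoracic and cervical-thoracic levels, were the next most abundant of the genes that rose. Hoxc9 was at 2.35, 1.88 and 1.57 CPM in the floxed and 7.79, 6.60 and 6.64 CPM in the knockout libraries of 6, 48 and 72 h (log2 fold change 1.86, SE 0.28, adjusted p = 0.0219 by edgeR). Hoxc6 was at 1.90, 1.70 and 1.53 CPM in the floxed and 6.47, 5.36 and 5.18 CPM in the knockout libraries (log2 fold change 1.73, SE 0.27, adjusted p = 0.0252 by edgeR). Neither gene's groups overlapped, and the knockout library of 24 h had 2.97 CPM of Hoxc9 and 1.58 CPM of Hoxc6.

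The other 4 called HoxC genes were close to the limit of detection in the floxed line. Hoxc5 had 6, 7 and 8 reads in the floxed and 37, 39 and 21 in the knockout libraries of 6, 48 and 72 h, and 5 and 6 reads in the floxed and knockout libraries of 24 h. Hoxc8 had 1, 2 and 5 reads in the floxed and 30, 31 and 24 in the knockout libraries, and 0 in both libraries of 24 h. Both genes were close to silent in the floxed line and in the knockout library of 24 h, and higher in the other knockout libraries.

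Hoxc11 had 3, 1 and 4 reads in the floxed and 24, 49 and 34 in the knockout libraries, with 0 and 3 at 24 h. Hoxc12 had 6, 4 and 4 reads in the floxed and 28, 60 and 35 in the knockout libraries, with 2 and 1 at 24 h. Summed over the 3 libraries of each line and scaled to the gene reads, the ratio of knockout to floxed was 5.10 for Hoxc5 (95% interval 3.16 to 8.61), 11.7 for Hoxc8 (5.69 to 28.1), 14.8 for Hoxc11 (7.23 to 35.1) and 9.70 for Hoxc12 (5.57 to 18.3). These exact Clopper-Pearson intervals cover counting error only. By edgeR the adjusted p was 0.0340 for Hoxc5, 0.0282 for Hoxc8, 0.0232 for Hoxc11 and 0.0210 for Hoxc12, with log2 fold changes of 2.31, 3.48, 3.82 and 3.24. As the filter let these genes in only through the knockout libraries, their p-values describe them and are no support for the direction. Hoxc11 and Hoxc12 belong to the lumbosacral and tail end of the cluster.

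The outer genes of the cluster behaved otherwise. Hoxc13, which is needed for hair and nail formation, was the most abundant HoxC gene, at 19.0, 21.7 and 15.7 CPM in the floxed and 35.7, 32.4 and 33.7 CPM in the knockout libraries. Its groups did not overlap, but its log2 fold change of 0.86 (SE 0.19) did not reach the limit (adjusted p = 0.0783 by edgeR). Hoxc4 lay at 10.8, 8.51 and 8.94 CPM in the floxed and 9.77, 8.99 and 9.27 CPM in the knockout libraries, and the groups overlapped (log2 fold change -0.0073, SE 0.22, adjusted p = 0.994 by edgeR).

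**Figure D3:**
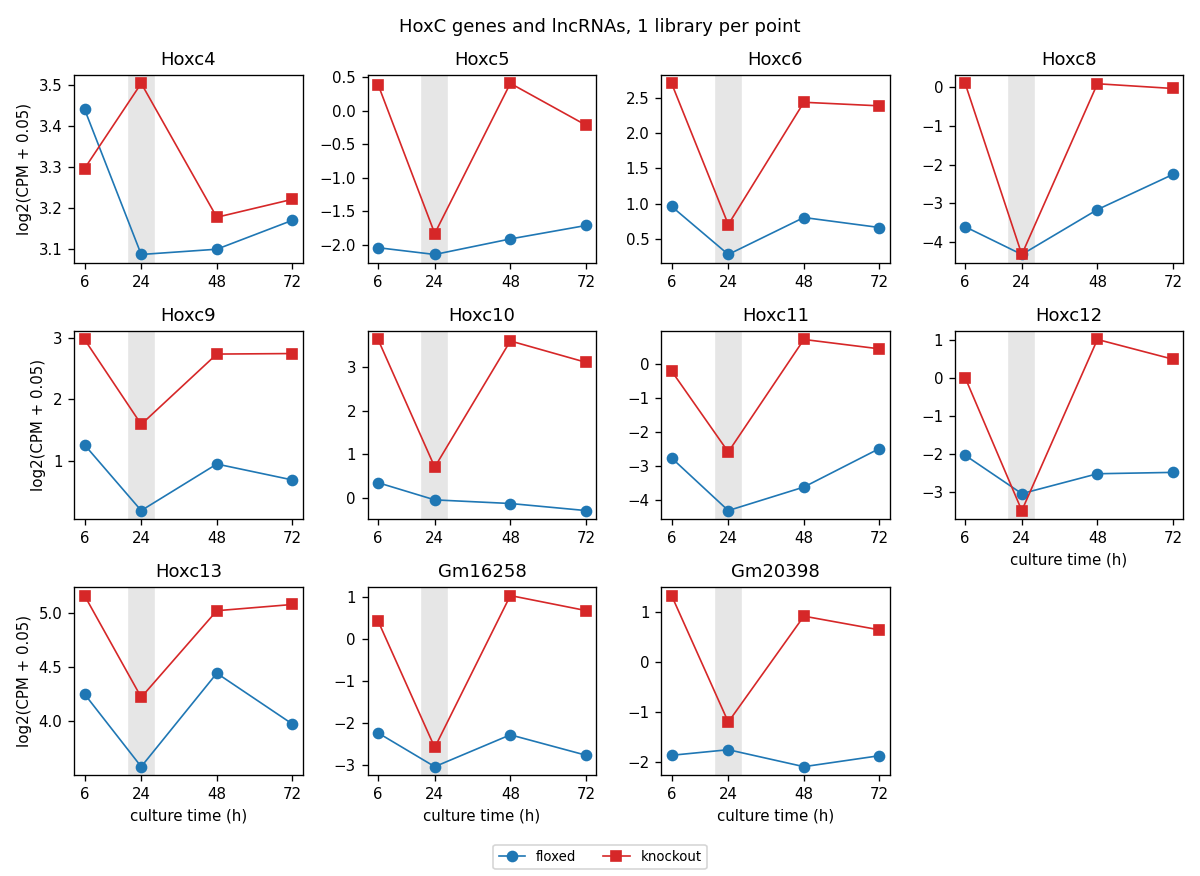
Level of each HoxC gene and of Gm16258 and Gm20398 as log2(CPM + 0.05) against culture time in hours, 1 library per point, each panel with its own axis; grey marks 24 h. From Hoxc5 to Hoxc12 the knockout libraries of 6, 48 and 72 h lie above all floxed libraries, and that of 24 h drops towards them (Hoxc10 from 12.4 to 1.58 CPM).

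The lncRNAs Gm16258 and Gm20398 moved with the HoxC genes. Both were chosen as members with their difference already known, so their values describe it. Gm16258, which does not share exons with a Hox gene, had 5, 5 and 3 reads in the floxed and 38, 61 and 40 in the knockout libraries of 6, 48 and 72 h, with 2 and 3 at 24 h. Its log2 fold change was 3.52 (SE 0.43, adjusted p = 0.00728 by edgeR over 1339 lncRNAs). Scaled to the gene reads, the ratio of the summed reads was 11.8 (95% interval 6.68 to 22.7).

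Gm20398 had 7, 6 and 7 reads in the floxed and 72, 56 and 39 in the knockout libraries, with 7 and 10 at 24 h (log2 fold change 3.17, SE 0.39, adjusted p = 0.00728 by edgeR). All of its 615 exonic bases are also exons on the same strand, 166 of Hoxc10 and 449 of Hoxc5. Its reads cannot be told apart from those of these genes, and it is no separate evidence. Over all lncRNAs tested, 0.299% were called higher and 0.597% lower at the adjusted limit.

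The third lncRNA, 5730446D14Rik, lies in the HoxA cluster, and 62.8% of its exonic bases run opposite to exons of Hoxa3. It was at 19.8, 14.8 and 10.6 CPM in the floxed and 5.99, 3.92 and 4.91 CPM in the knockout libraries of 6, 48 and 72 h. The groups did not overlap, and the log2 fold change was -1.60 (SE 0.29), with an adjusted p of 0.0528 by edgeR that missed the limit. With culture time as a block it passed (log2 fold change -1.58, adjusted p = 0.00241 by edgeR), where 2.39% of lncRNAs were called higher and 3.44% lower. The 24 h libraries were reversed, at 7.59 CPM in the floxed and 19.2 CPM in the knockout line. Whether counting used the strand is not given in the sources used here, so its reads and those of Hoxa3 may be mixed.

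Of the other 18 lncRNA rows inside the clusters, 9 were tested and 0 were called at the adjusted limit by edgeR, with 1 past the unadjusted limit and 2 called with the culture time block. Over all lncRNAs, 3.14% were higher and 3.58% lower at the unadjusted limit, and 2.39% higher and 3.44% lower with the block. Their log2 fold changes ran from -1.16 to 0.74, and 8 of the 9 were negative. Called with the block were 6720416L17Rik, which RefSeq names Haglr (log2 fold change -1.19, adjusted p = 0.0202 by edgeR), and Gm15051, which RefSeq names Hotairm1 (log2 fold change -1.16, adjusted p = 0.0209 by edgeR). The remaining 9 rows had at most 11 reads in a library.

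Genes at the head end of HoxA and HoxD were lower in the knockout line. Hoxa5, which acts in the cervical skeleton and the lung, was at 26.7, 20.6 and 20.3 CPM in the floxed and 10.7, 9.06 and 11.3 CPM in the knockout libraries of 6, 48 and 72 h. The groups did not overlap, and its level fell by 1.12 on the log2 scale (SE 0.21, adjusted p = 0.0493 by edgeR). Hoxd4, which acts at the boundary of hindbrain and neck, was at 26.0, 21.2 and 20.5 CPM in the floxed and 11.1, 11.1 and 11.3 CPM in the knockout libraries. Its groups did not overlap either, and its log2 fold change was -1.01 (SE 0.19, adjusted p = 0.0488 by edgeR). Both calls lie just inside the limit. Of 15 alternative fits, Hoxa5 lost its call in 11 and Hoxd4 in 12. Among these were 5 and 6 of the fits that left out 1 library. Library totals without normalization factors, or no filter on low counts, left 7 calls, all higher.

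**Figure D4:**
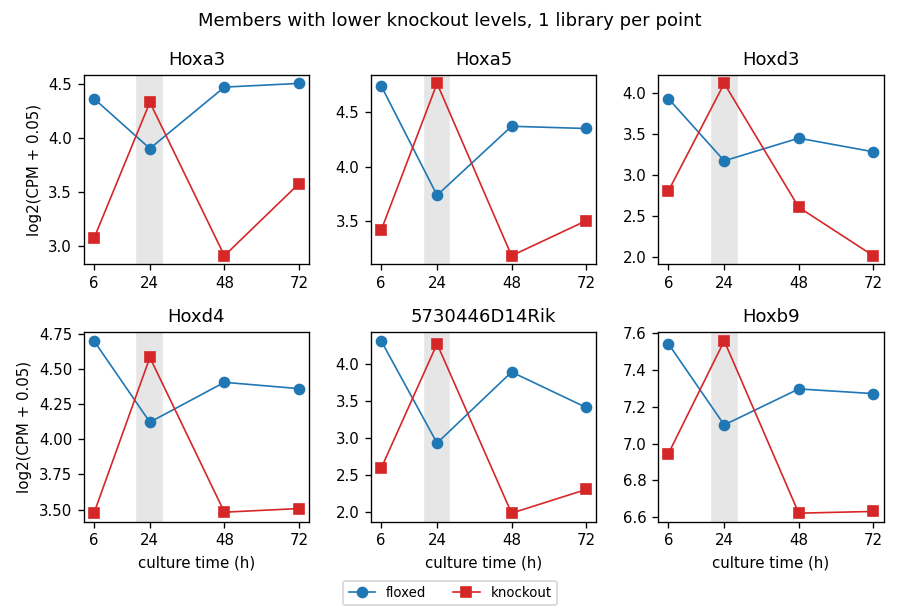
Level of 6 members with lower knockout values as log2(CPM + 0.05) against culture time in hours, 1 library per point, each panel with its own axis; grey marks 24 h. At 6, 48 and 72 h every knockout point lies under every floxed point, and at 24 h the knockout library is above the floxed one (Hoxa5 27.1 against 13.3 CPM).

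Hoxa3 and Hoxd3, paralogs that act in the neck and throat, and Hoxa7 and Hoxa10 passed the adjusted limit when culture time was fitted as a block and not without it. Hoxa3 was at 20.5, 22.1 and 22.6 CPM in the floxed and 8.37, 7.49 and 11.9 CPM in the knockout libraries, and Hoxd3 at 15.1, 10.8 and 9.65 CPM against 6.91, 6.02 and 3.98 CPM. Their adjusted p was 0.0637 and 0.153 without and 0.00231 and 0.0049 with the block (edgeR), and their log2 fold changes with it were -1.25 and -1.08. Hoxd3 and Hoxd4 share exons on the same strand, as do Hoxa2 and Hoxa3.

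Hoxa7 and Hoxa10 lie towards the tail end of HoxA and went the other way from Hoxa5. Hoxa7 was at 0.933, 0.740 and 0.479 CPM in the floxed and 3.10, 3.27 and 1.27 CPM in the knockout libraries (log2 fold change with the block 1.79, adjusted p = 0.00432 by edgeR, and 0.124 without it). Hoxa10 had 4, 1 and 1 reads in the floxed and 17, 17 and 9 in the knockout libraries, with 2 and 7 at 24 h. Its log2 fold change with the block was 2.91 (adjusted p = 0.0111 by edgeR, and 0.0749 without it). It passed the filter on low counts only through the knockout libraries, so only a higher call was open to it. With the block, 13 Hox genes were called, 9 higher and 4 lower, where 3.78% of all genes were called higher and 4.67% lower.

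The remaining abundant members missed the limits. Hoxb9 was at 187, 157 and 155 CPM in the floxed and 123, 98.3 and 99.0 CPM in the knockout libraries, with no overlap (log2 fold change -0.63, SE 0.17, adjusted p = 0.140 by edgeR). Hoxb6 was at 36.8, 30.9 and 30.4 CPM against 22.3, 19.4 and 18.6 CPM, also without overlap (log2 fold change -0.70, adjusted p = 0.122 by edgeR). Hoxb8 was at 35.7, 29.3 and 25.9 CPM against 30.2, 21.9 and 20.9 CPM, and its groups overlapped (log2 fold change -0.31, adjusted p = 0.597 by edgeR).

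Among the HoxA and HoxD genes, Hoxd8, a gene of the trunk, had 631, 571 and 584 reads in the floxed and 290, 306 and 343 in the knockout libraries (log2 fold change -0.76, adjusted p = 0.177 by edgeR). Hoxa2, the selector of second-arch identity, had 411, 332 and 243 reads against 210, 153 and 149 (log2 fold change -0.79, adjusted p = 0.262 by edgeR). Hoxa4 was at 5.37, 4.78 and 7.86 CPM against 4.02, 3.14 and 7.73 CPM, and its groups overlapped. The log2 fold changes of the 9 HoxB genes tested ran from -0.70 to 0.49, and 7 of them were negative.

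Of the 29 Hox genes tested, 10 were higher in each knockout than in each floxed library and 10 were lower, where this held for 8.76% and 10.5% of all genes. At the unadjusted limit of the study, an absolute log2 fold change over 1 with p under 0.05, 9 Hox genes were higher and 4 lower, against 3.31% and 4.04% of all genes and 3.14% and 3.58% of lncRNAs.

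As a share of summed Hox RPKM, HoxC took 7.19%, 8.41% and 7.07% in the floxed libraries of 6, 48 and 72 h and 20.8%, 22.8% and 21.4% in the knockout libraries. The 7 genes from Hoxc5 to Hoxc12 summed to 4.54 to 5.98 CPM in the floxed and 24.8 to 30.7 CPM in the knockout libraries. Hoxd3, Hoxd4 and Hoxd8 summed to 48.8 to 61.4 CPM in the floxed and 27.1 to 28.5 CPM in the knockout libraries. These sums were not tested.

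**Figure D5:**
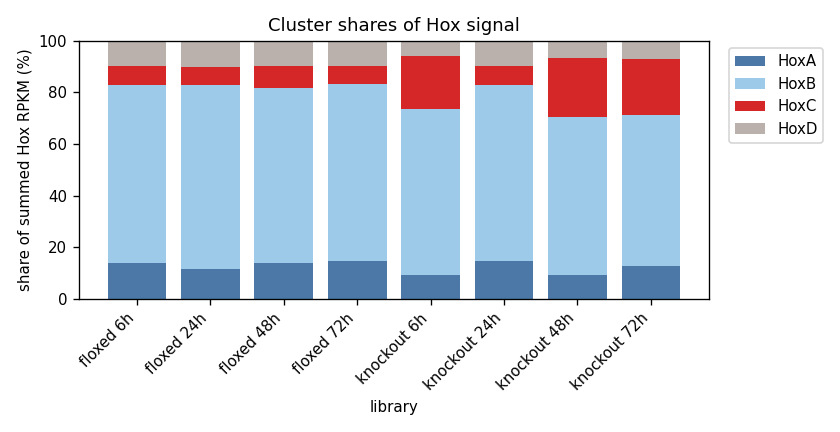
Share of summed Hox RPKM in percent taken by each cluster, 1 bar per library. HoxC takes 20.8% to 22.8% in the knockout libraries of 6, 48 and 72 h and 6.81% to 8.41% in the floxed libraries and the knockout library of 24 h.

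The library labelled knockout at 24 h went against its label for nearly all members. For the 23 members whose groups did not overlap at 6, 48 and 72 h, it lay on the floxed side of the midpoint for 22, the exception being Hoxa10, and inside the floxed range for 10. The floxed library of 24 h lay on the floxed side for 18, the exceptions being Hoxa2, Hoxa5, Hoxb2, Hoxb6 and 5730446D14Rik. Over the 287 genes called, the floxed library of 24 h was on the knockout side for 15. HoxC took 7.36% of Hox RPKM in the knockout and 6.81% in the floxed library of 24 h. With all 8 libraries edgeR called 0 Hox genes, and also 0 of all genes. In that fit 4 Hox genes passed the unadjusted limit, but the share of all genes past it was not counted, so the 4 cannot be weighed. With the knockout library of 24 h left out and the floxed one kept, it called 9 Hox genes, all higher, and 3.12% of all genes. The 9 were the same 7 HoxC genes with Hoxa7 and Hoxa10. The cause was not tested.

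The number of calls depended on single libraries. Without the floxed library of 6, 48 or 72 h, 1, 0 and 2 Hox genes were called, and without the knockout library of 6, 48 or 72 h, 2, 0 and 10. The share of all genes called fell in 5 of these 6 fits as well, from 2.19% with all 6 libraries to 0.66%, 0.105% and 1.19% without the floxed and to 0.638% and 0.0676% without the knockout libraries of 6 and 48 h, and was 2.83% without that of 72 h. Of the 2 HoxC lncRNAs, 0, 0 and 2 were called without the floxed and 2, 0 and 2 without the knockout libraries of those times. Of all lncRNAs, 0.358%, 0.0723% and 0.429% were called without the floxed and 0.571%, 0.072% and 0.93% without the knockout libraries. The log2 fold change of Hoxc10 stayed between 3.42 and 3.71 over these 6 fits, with adjusted p from 0.00446 to 0.0569, and that of Gm16258 between 3.35 and 3.69. Other members varied more, Hoxc8 from 3.075 to 4.291 and Hoxa10 from 2.564 to 3.774.

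Culture time was tested with 1 slope on the log2 of time for both lines. No Hox gene was called by edgeR (0.0% of all genes), and 2 of the 29 (6.90%) had an unadjusted p under 0.05, against 2775 of the 13121 genes (21.1%). These were Hoxb7, with a slope of -0.18 per doubling of time (adjusted p = 0.204) and Hoxb8 with -0.12 (adjusted p = 0.226). The slopes of the 29 genes ran from -0.24 to 0.18. For the interaction of genotype and time, 0 Hox genes were called by edgeR (0.0% of all genes) and 0 had an unadjusted p under 0.05, against 63 of all genes (0.48%). DESeq2 called 0 Hox genes in both, while it called 7.51% of all genes for the time slope and 0 genes for the interaction.

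The partners of Hox proteins and the regulators of the clusters were given by list. None of the 9 Hox cofactors (Pbx, Meis and Pknox genes, which bind DNA together with Hox proteins) passed either limit (median log2 fold change -0.09). None of the 23 Polycomb and Trithorax regulators tested, which hold Hox clusters silent or active, passed either limit (median -0.11). By RPKM Suz12 (-0.40) and Eed (-0.06) were the most abundant, Eed by a small margin over Ctcf. Log2 fold changes of the regulators ran from -0.87 (Jarid2) to 0.47 (Men1). With the block, Jarid2 and Men1 had an adjusted p of 0.0103 and 0.0147 by edgeR, but their fold changes stayed short of the limit. Of the 11 genes tested that flank the clusters, 0 passed either limit without the block. With it, the HoxB neighbour Ttll6 was called higher (log2 fold change 1.49, adjusted p = 0.0139 by edgeR, and 0.475 without it). On the HoxC side, Calcoco1 had a log2 fold change of -0.03 and Cbx5 of -0.37, beside 2.31 for the median HoxC gene.

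Markers of cell type moved with the lines as well. The summed level of the 5 odontoblast markers was 14.7 to 63.8 CPM in the floxed and no more than 2.90 CPM in the knockout libraries of 6, 48 and 72 h, mostly through Alpl, the mineralization enzyme alkaline phosphatase (log2 fold change -5.61, adjusted p = 0.0153 by edgeR). The 11 dental mesenchyme markers summed to 173 to 205 CPM against 78.7 to 131 CPM. Without the block 0 of the 7 tested were called, where 0.899% of all genes were called higher and 1.29% lower. With culture time as a block 2 were called lower, Dlx2 (48.8 CPM in the floxed and 8.25 CPM in the knockout line, log2 fold change -2.91, adjusted p = 0.00227 by edgeR, and 0.118 without the block) and Dlx1 (log2 fold change -1.05, adjusted p = 0.0158, and 0.288 without it). With the block 3.78% of all genes were called higher and 4.67% lower. Pax9 was at 2.10 CPM in the floxed and 3.02 CPM in the knockout line and was not called, and Dlx5, at 0.148 and 0.462 CPM, was not tested. The odontoblast marker Sp7 was also called lower with the block (log2 fold change -4.06, adjusted p = 0.000834 by edgeR, and 0.0505 without it), and the remaining odontoblast marker tested, Phex, was at 0.717 CPM in the floxed and 0.980 CPM in the knockout line and was not called. The 6 limb and trunk mesenchyme markers summed to 142 to 154 CPM against 103 to 135 CPM. Of these, Tbx15, Tbx18 and En1 carried the level, and Tbx4, Tbx5 and Lmx1b had at most 1 read. The part of these markers in the Hox differences was not tested.

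Markers of other cells had low sums in both lines, and 0 of the 7 tested were called at the adjusted limit without the block, while 6 passed the unadjusted limit, which 3.31% of all genes passed higher and 4.04% lower. Epithelial markers summed to 1.12 to 1.86 CPM in the floxed and 0.695 to 1.91 CPM in the knockout libraries, endothelial markers to 1.89 to 3.41 and 1.51 to 3.66 CPM, and leukocyte markers to 4.25 to 14.2 and 2.67 to 3.47 CPM. Schwann and glia markers summed to 1.28 to 1.67 and 1.54 to 3.04 CPM, and skeletal muscle markers to 0.185 to 0.543 and 0.0327 to 0.657 CPM. With culture time as a block the same 6 were called by edgeR, where 3.78% of all genes were called higher and 4.67% lower. Lower in the knockout line were Krt14 (log2 fold change -1.45, adjusted p = 0.0414), Kdr (-1.30, adjusted p = 0.0166), Cd68 (-1.25, adjusted p = 0.0272) and Csf1r (-1.64, adjusted p = 0.0118). Higher were Trp63 (log2 fold change 2.86, adjusted p = 0.0279) and Tek (1.53, adjusted p = 0.0204). Their part in the Hox differences was not tested. Krt5 and Ptprc, which define epithelium and leukocytes, had at most 1 and 2 reads in a library.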

How the data were processed

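Total RNA of 8 libraries, 1 per cell line and culture time, was sequenced by the authors with Illumina TruSeq preparation. The labels give 50 bp single-end reads, while the study's methods speak of paired reads, and the series' design text gives 8 h where the labels give 6 h. The authors deposited raw read counts per gene and per lncRNA, made with CASAVA 1.8.2, TopHat2 2.0.8b on mm9 and HTSeq, per the submitters' processing notes. The HTSeq version, annotation and strand setting are not given in the sources used here.

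Counts were tested on the whole tables with edgeR 4.0.16 (filterByExpr, TMM factors, quasi-likelihood test, R 4.3.3), with Benjamini-Hochberg adjustment. lncRNA counts were scaled to the library sizes of the gene table. A gene was called at an absolute log2 fold change of at least 1 with adjusted p of at most 0.05. The SE was taken as the size of the log2 fold change divided by the root of the F statistic. Only the times named in the study's methods (6, 48 and 72 h) entered the fit, 6 libraries in all. Deviations of libraries of the same time correlated at 0.713, 0.535 and 0.84 for 6, 48 and 72 h, so a fit with culture time as a block is given beside results it changed. CPM used the gene reads of each library and RPKM exonic lengths of the GENCODE annotation of NCBIM37. Levels at 24 h were set against the midpoint of the mean log2(CPM + 0.05). Intervals are exact at 95%. Alternatives were DESeq2 1.42.0, limma 3.58.1, other filters, other sets of libraries and leaving out each library. The fit was tested on simulated data. Library totals without TMM were added after seeing the data.

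Values are given per library for members called at the adjusted limit with or without the block, the 3 members of highest mean RPKM in each cluster and the 3 lncRNAs. The members and lists were chosen with earlier results of these data known. The Trithorax gene Kmt2a was matched under its older symbol Mll1, and the HoxB neighbour Prac was not matched by symbol. The promoter table was matched by symbol, and promoters of 22 of the 39 Hox genes were found. Some genes entered the counts but are not reported here by name.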

Additional observations from a re-analysis of the deposited data

Results flagged for a closer look

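In 4 of the 48 groups of 4 libraries examined (24 members in 2 lines), 1 library stood far from the other 3, beyond Dixon's 95% critical value for the gap divided by the range. For independent groups of replicates, chance would flag about 1 in 20. These groups share their libraries and each spans 4 culture times, so that rate does not apply here. In all 4 it was the knockout library of 24 h, with 27.1 CPM of Hoxa5, 23.9 CPM of Hoxd4, 19.2 CPM of 5730446D14Rik and 0.0 CPM of Hoxc8.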

How the results depend on the processing

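The 9 Hox genes and 2 HoxC cluster lncRNAs called became 0 and 0 with all 8 libraries, 1 and 0 with culture time as replicate block over all 8, and 3 and 0 with at least 10 counts in every library, a filter that leaves out the genes low in the floxed line. The share of all genes called in these 3 fits was 0%, 0.253% and 1.18%. Leaving out 1 library at a time gave 0 to 10 Hox genes and 0 to 2 lncRNAs. With culture time as replicate block over the 6 libraries, 13 Hox genes and 3 lncRNAs were called (8.45% of all genes and 5.83% of all lncRNAs). DESeq2 called 13 and 3 (5.02% and 2.24%), limma 9 and 2 (2.2% and 0.822%), no filter 7 and 3 (1.84% and 1.5%), and library totals without TMM 7 and 2 (2.1% and 0.896%), where the reported fits called 2.19% and 0.896%. Time trend and interaction gave 0 calls in every alternative run. Of the 24 members given per library, Hoxc4 and Hoxa4 alone changed sign. Hoxc4 had log2 fold changes of 0.0941 with all 8 libraries, 0.0951 with the block over all 8 and 0.0225 with the knockout library of 24 h left out, and ran from -0.0837 to 0.0632 with 1 library left out, with 0.0248 without the knockout library of 48 h. Hoxa4 had 0.0087 without the floxed library of 72 h and ran down to -0.79. Neither was called in any fit. Ordering by CPM in place of RPKM kept 10 of the 12 members most abundant in their cluster, and CPM without the logarithm left 22 members on the floxed side at 24 h. The causes of these changes were not tested. Low counts limit Hoxc5, Hoxc8, Hoxc11, Hoxc12 and Hoxa10.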
